A study of Homo sapiens with 18 samples.

Results

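The peaks described here lie in 4 nuclear copies of mitochondrial genes, MTRNR2L1, MTATP6P1, MTND2P28 and MTND5P11. They come from maps of RNA bound by FLAG-tagged MYC, a DNA-binding protein that drives growth genes, made by eCLIP, an enhanced form of crosslinking and immunoprecipitation followed by sequencing, in which ultraviolet light joins protein to RNA in intact cells before the protein is pulled down. The genes were chosen by their wild-type peaks: a peak belongs to a gene when its summit, the base of strongest signal, lies in the RefSeq span of that gene. That rule found 6 peaks of 2340 in all, namely 4 of 2149 in the wild-type list, 1 of 103 in the 3A list and 1 of 88 in the 7A list. Which genes hold a peak is therefore not a finding, and position, width and strength are given as descriptions.

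All cells were U2OS, a human osteosarcoma line, with their own MYC knocked out and a doxycycline-inducible FLAG-tagged MYC (Tet-On) added. The added MYC was wild type or one of the mutants labelled 3A and 7A. Each peak list belongs to cells that received 1 µg/mL doxycycline for 24 h and were then irradiated at 254 nm with 400 mJ/cm2. For every allele the series holds 2 immunoprecipitates and 1 input with doxycycline, and as many with PBS in its place, 18 libraries in 12 groups. The labels do not say which residues 3A and 7A change, nor whether each line is 1 clone, and MYC in all of them came from a transgene. There is 1 list per allele, so no value has a replicate check or an error, and the sequencing depth is unknown. Lists of the PBS-treated cells were not analysed here, so no background of uninduced cells stands beside these values. Peaks give no expression level and could not check the cell type: of 8 osteoblast and osteosarcoma markers, SPARC alone held a peak, in the 7A list, and of 8 markers of other tissues none held one in any list.

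Mitochondrial DNA is a small circle transcribed from both strands into long precursors, which are cut into ribosomal RNAs, transfer RNAs and messages for subunits of the respiratory chain. Pieces of this circle have been copied into the nuclear chromosomes during evolution, and such nuclear mitochondrial segments keep the order of the mitochondrial genes and much of their sequence. RNA made in mitochondria can therefore resemble a nuclear copy closely, and short reads may be placed at either. Members of the MTRNR2L series are copies of RNR2, the gene of the large mitochondrial ribosomal RNA, and take the name humanin-like from a small peptide described within it. MTND2P28 and MTND5P11 are copies of ND2 and ND5, which encode subunits of respiratory complex I, and MTATP6P1 is a copy of ATP6, a subunit gene of the ATP synthase. RefSeq classes all 4 as pseudogenes.

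The 4 copies belong to 3 longer stretches of copied mitochondrial DNA, so the members are not independent of each other. MTND2P28 and MTATP6P1 stand in a single stretch on chromosome 1, with 7 annotated copies over 5861 bp that begin at MTND1P23 and end at MTCO3P12. Its genes run in mitochondrial order, with all 6 steps upward along the circle. MTRNR2L1 lies on chromosome 17 among 11 copies within 10 kb on either side, whose order makes 9 steps upward and 1 that passes the point where the numbering of the circle starts again. MTND5P11 lies on chromosome 5 among 6 copies over 5225 bp, and there all 5 steps run downward, so this stretch is inserted in the opposite direction. In the wild-type list 2 of the 7 copies on chromosome 1, 1 of 11 on chromosome 17 and 1 of 6 on chromosome 5 held a summit. A further wild-type peak on chromosome 1 lay between MTND2P28 and MTCO1P12, in no annotated gene. The remaining copies of the stretches held no summit, which gives no level of signal there.

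**Figure D1:**
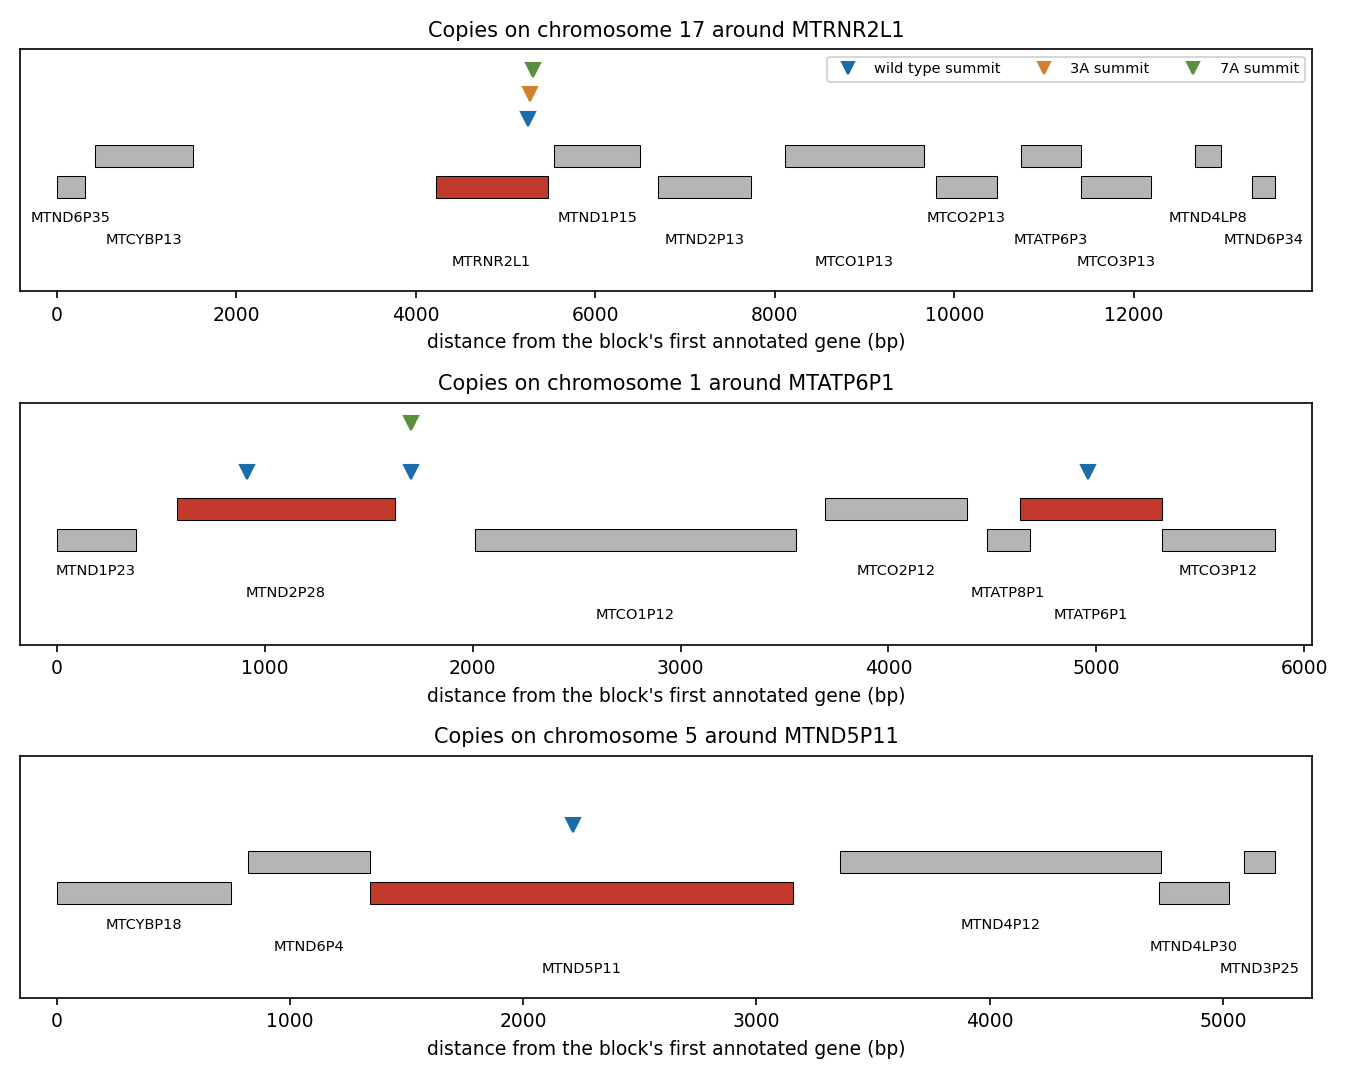
Annotated nuclear copies of mitochondrial genes around the members, as bars at their distance in bp from the first gene of each stretch (members in red, alternate bars raised for legibility), with the summits of wild-type, 3A and 7A peaks as triangles. MTRNR2L1 carries a summit of each list, and the 2 summits between MTND2P28 and MTCO1P12 fall in no annotated gene.

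MTRNR2L1, the ribosomal RNA copy (gene ID 100462977, chr17:22523415-22524663 in hg38, 1249 bp), was the member with a peak for every allele. The wild-type peak spanned 22524419 to 22524536 (118 bp) with its summit at 22524442, and was enriched 4.83-fold at a −log10 q of 708. Fold enrichment is the authors' ratio of signal at the peak over a control or background that the sources used here do not name, and q is their p-value after correction for many tests. Of 2149 wild-type peaks it stood 6th by −log10 q and 1797th by fold enrichment, so it was among the most significant and among the weakest by ratio. The next above it by −log10 q were RPPH1 (1189) and RMRP (1102), the RNA components of ribonucleases P and MRP, and the next below were SCARNA28 (386) and the linker histone gene H1-4 (379).

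In the 3A list the MTRNR2L1 peak spanned 22524423 to 22524534 (112 bp), with its summit at 22524471, and was enriched 3.92-fold at a −log10 q of 237. It was 4th of 103 by −log10 q and 76th by fold enrichment. Its neighbours in the order of −log10 q were peaks at MYC (362) and PGK1 (270) above, and at MYC (222) and RMRP (167) below. As in the wild-type list, a high −log10 q went with a ratio below the median, which was 5.54 for 3A and 8.11 for wild type.

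In the 7A list the peak had the same ends as in 3A, 22524423 and 22524534, with its summit at 22524500, and was enriched 19.8-fold at a −log10 q of 778. It was 1st of 88 by −log10 q and 11th by fold enrichment, above 87.5% of the list. The 7A list thus differed from the others in that its MTRNR2L1 peak was high on both measures within its own list. The peaks next in −log10 q were at TOM1 (170) and MYC (154). Fold enrichments are not set against each other across lists, since the depth, control and cutoff behind each list are not given, and whether 7A bound more of this RNA was not tested.

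The MTRNR2L1 peaks of the 3 alleles covered nearly the same bases while their summits differed. Both mutant peaks lay wholly inside the wild-type peak and covered 94.9% of it, with starts 4 bp and ends 2 bp apart. Measured from the lower end of the gene span, the peaks ran from 1004 to 1121 bp in wild type and from 1008 to 1119 bp in both mutants. The summits lay at 1027 bp in wild type, 1056 bp in 3A and 1085 bp in 7A, so that each step was 29 bp and wild type and 7A were 58 bp apart. Over all 81 overlapping pairs of wild-type and 3A peaks the median summit distance was 5 bp, and 21 pairs had 29 bp or more. Over all 30 pairs of wild-type and 7A peaks the median was 6 bp, and 9 had 58 bp or more. For the 33 pairs of 3A and 7A peaks the median was 15 bp, with 13 at 29 bp or more. Identical ends were shared by 4 of those 33 pairs, MTRNR2L1 among them. With 1 list per allele, the spread of the summit position between replicates is unknown.

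**Figure D2:**
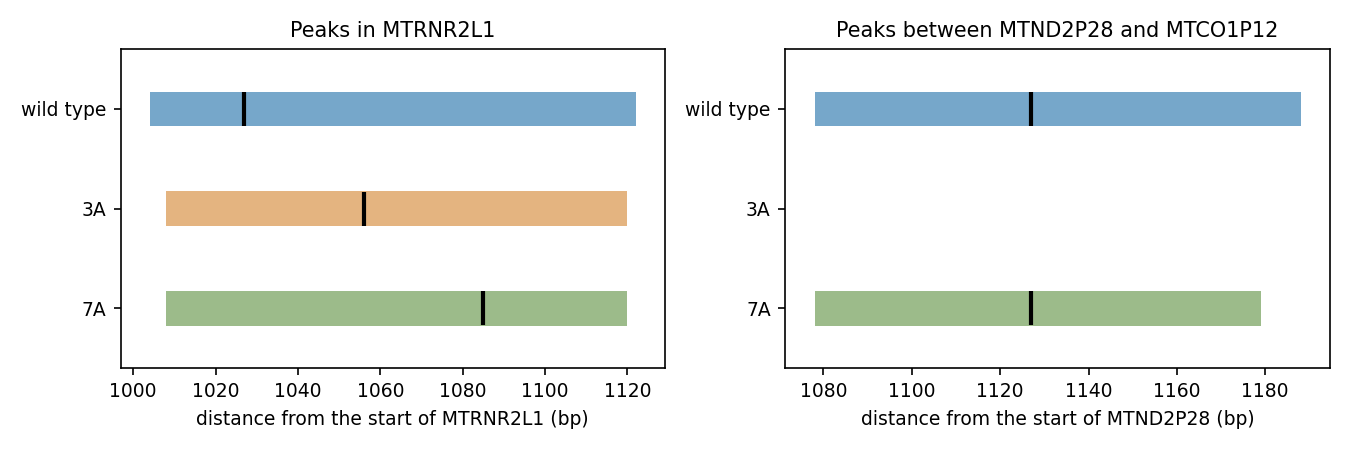
Extent of each peak (bars) and its summit (black line) in bp from the lower end of MTRNR2L1 (left) and of MTND2P28 (right), by allele. In MTRNR2L1 the bars almost coincide while the summits lie at 1027, 1056 and 1085 bp, and between MTND2P28 and MTCO1P12 the wild-type and 7A summits coincide at 1127 bp.

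By offset, these summits fall near the 3′ end of the mitochondrial ribosomal RNA gene. Positions were counted from the start of MTND1P15, the copy next to MTRNR2L1. That start lay 1163 bp from the start of MTND2P13, the same spacing as between ND1 and ND2 in mitochondrial DNA. This spacing is on the far side of MTND1P15, so it does not check the interval between the summits and MTND1P15. The wild-type, 3A and 7A summits lay 294, 265 and 236 bp before MTND1P15. That is position 3013, 3042 and 3071 of the mitochondrial genome, where RNR2 extends from 1671 to 3229. Counting from the upper end of MTRNR2L1 gave positions 5 bp lower. The count rests on distances alone, since no genome sequence was used here. The peaks were on the plus strand, and the copies beyond MTRNR2L1 follow mitochondrial order upward on chromosome 17, so this strand corresponds to RNR2 RNA and not to its complement.

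MTND2P28, the ND2 copy (gene ID 100652939, chr1:629640-630686, 1047 bp against 1042 bp of ND2), had a peak in the wild-type list and in neither mutant list. The peak spanned 629932 to 630036 (105 bp), with its summit at 629977, and was enriched 4.62-fold at a −log10 q of 27.6. It was 640th of 2149 by −log10 q, above the list's median of 17.8, and 1849th by fold enrichment. The peaks next to it in the order of −log10 q lay in MANF (27.6) and PRMT1 (27.6) above and in PSMF1 (27.5) and RPS10P19 (27.4) below. It was the member with the lowest −log10 q, the lowest ratio and the narrowest peak of the 4 in the wild-type list.

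MTND5P11, the ND5 copy (gene ID 100506169, chr5:134924648-134926459, 1812 bp and thus as long as ND5), held a wild-type peak from 134925467 to 134925587 (121 bp). Its summit at 134925517 lay near the middle of the span, and it was enriched 10.5-fold at a −log10 q of 79.2. It was the one member above the wild-type median by fold enrichment, ranking 676th, and it ranked 105th by −log10 q. Its neighbours by −log10 q were NME1 (79.5) and CCT6A (79.3) above and PHB2 (78.2) and SRSF1 (77.7) below.

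The MTND5P11 peak differed from the others in its setting and in its orientation relative to the copied gene, although its strand was plus as theirs was. The copy lies within PCBD2 (chr5:134905131-134962644), a protein-coding gene of a dehydratase that recycles a pterin cofactor. PCBD2 is on the plus strand in RefSeq, and so is the peak, 20386 bp from the gene's start. PCBD2 held no other peak in any list. Because the genes of this stretch run downward along the chromosome, the plus strand is the complement of the ND5 message and the sense of PCBD2 RNA. The annotation used here gives no exons, so whether the copy lies in an intron of PCBD2 was not determined, and which RNA gave the reads was not tested. By offset from the upper end of the copy, the summit corresponds to position 13279, which is 942 bp into ND5. The spacing to MTND4P12 was 1577 bp in the copy and in mitochondrial DNA alike.

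MTATP6P1, the ATP synthase subunit copy (gene ID 106480796, chr1:633696-634376, 681 bp and as long as ATP6), held a wild-type peak from 633991 to 634115 (125 bp), the widest of the 4. The peak, with its summit at 634022, was enriched 4.73-fold at a −log10 q of 110. By −log10 q the peak was 48th of 2149, between H4C8 (110.6) and RPS20 (110.1), with HSP90AB1 (110.9) and H2BC11 (108) one place further out on either side. By fold enrichment it was 1818th. The summit lay 326 bp from the start of the copy, which by offset is position 8853 of mitochondrial DNA, inside ATP6. The distance from MTCO2P12 to MTATP6P1 was 939 bp against 941 bp between COX2 and ATP6, so this position may be off by a few bases.

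A further pair of peaks lay just outside the rule, in the same stretch on chromosome 1 and in no annotated gene. The wild-type peak spanned 630718 to 630827 (110 bp), was enriched 9.23-fold at a −log10 q of 223, and was 14th of 2149 by −log10 q. The 7A peak spanned 630718 to 630818 (101 bp), was enriched 2.98-fold at a −log10 q of 19.9, and was 47th of 88. Both summits were at 630767, 81 bp beyond the end of MTND2P28 and 307 bp before MTCO1P12. Inside the rule, the summit closest to the edge of its gene was the 7A summit in MTRNR2L1, 163 bp from the upper end. The starts of the pair were identical and the ends 9 bp apart, and 4 of the 30 pairs of wild-type and 7A peaks shared their summit. MTND2P28 and MTCO1P12 start 1434 bp apart, as do ND2 and COX1. The length of MTND2P28 is 1047 bp against 1042 bp of ND2, so a position by offset here may be off by a few bases. By offset both summits correspond to position 5597, 10 bp from the lower end of TRNA, the gene of the alanine transfer RNA. In mitochondrial DNA that transfer RNA is read from the strand opposite to ND2 and COX1, and the plus-strand peaks run with ND2 and COX1. With this pair counted, the stretch on chromosome 1 had 3 of 2149 wild-type peaks, 1 of 88 7A peaks and 0 of 103 3A peaks. The lists differ in size and the peaks are few, so nothing is read from these counts.

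Strength by ratio and strength by −log10 q diverged for most of these peaks. Among the 341 wild-type peaks whose fold enrichment was within 1.2 times that of MTRNR2L1, its −log10 q was the highest, and their median was 10.1. By the same comparison MTATP6P1 ranked 6th of 333, MTND5P11 24th of 519, MTND2P28 44th of 327 and the peak between MTND2P28 and MTCO1P12 2nd of 572. In the 3A list the MTRNR2L1 peak ranked 1st of 22 such peaks, and in the 7A list 1st of 13. After these values had been seen, peaks with a −log10 q above 100 and a fold enrichment under 5 were listed. There were 7 in the wild-type list, at MTRNR2L1, MTATP6P1, RPPH1, RMRP and MIR4449 and a pair at ACTB. They were 7 of 56 wild-type peaks with a −log10 q above 100, where 386 of all 2149 had a fold enrichment under 5. The 3A list had 4, at MTRNR2L1, RMRP, MIR4449 and RPLP1, of 11 above 100, where 47 of all 103 were under 5. The 7A list had 0 of 7, where 20 of all 88 were under 5. A low ratio was thus not more common among peaks of high −log10 q than over each list. The input libraries were not analysed here.

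**Figure D3:**
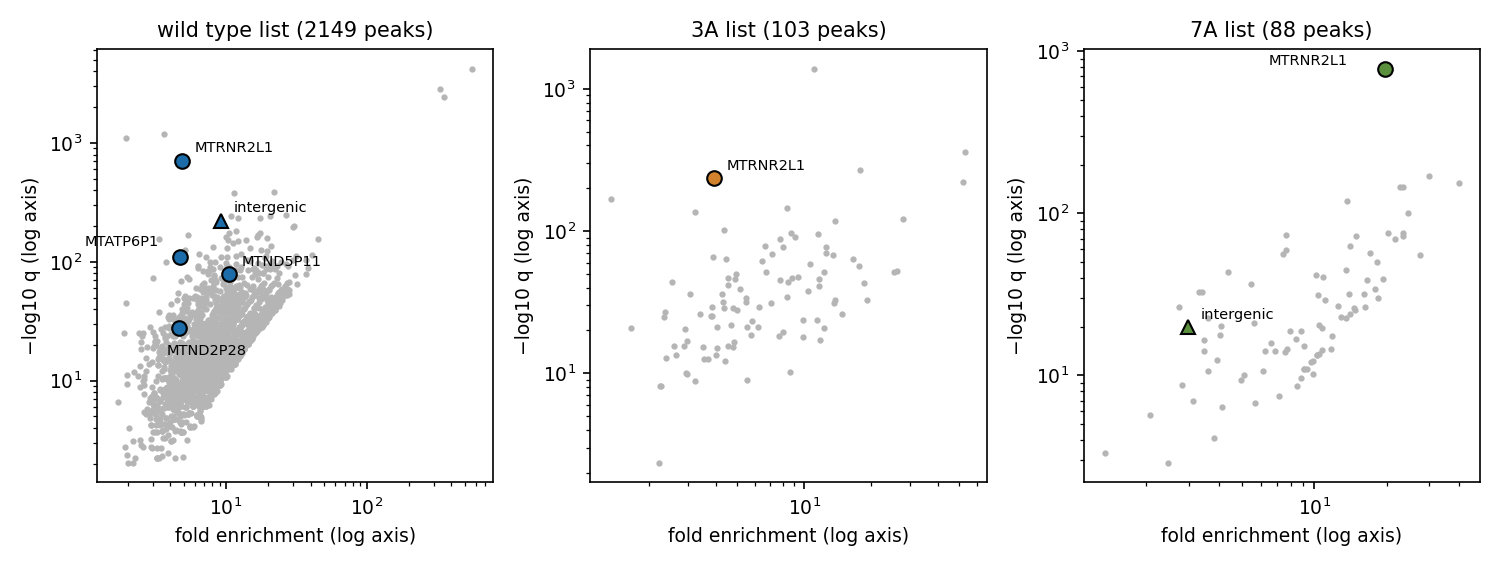
Fold enrichment against −log10 q of every peak (grey), both on log axes, in the wild-type, 3A and 7A lists, with the peaks in members as circles and those between MTND2P28 and MTCO1P12 as triangles. MTRNR2L1 stands above peaks of like fold enrichment in each panel, and in the 7A panel it is the highest point, at 778.

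The peaks in members were narrow. Their widths ran from 105 to 125 bp, where medians were 165 bp in the wild-type, 171 bp in the 3A and 202 bp in the 7A list, and the narrowest peak of any list was 100 bp. Each stood at the narrow end of its list: 5.17% of wild-type peaks were narrower than that in MTND2P28 and 23.9% were narrower than that in MTATP6P1. For MTRNR2L1, 16.6% of wild-type, 15.5% of 3A and 21.6% of 7A peaks were narrower. Peaks in other pseudogenes were also narrow in the wild-type list, with a median of 122 bp over 157 peaks. In that list the width of the peaks in members was thus close to that of other pseudogene peaks. Those 157 had a median fold enrichment of 9.30 and a median −log10 q of 21.4. Of these, 3 exceeded a −log10 q of 100, as did 56 of all 2149 wild-type peaks. The highest of the 157, 202, was below the 708 of MTRNR2L1. Of the peaks in other pseudogenes, the mutant lists had 3 in 3A and 2 in 7A, with −log10 q up to 45.7 and 14.6. Their median widths were 164 bp in 3A and 253.5 bp in 7A, wider than the MTRNR2L1 peaks there, but over very few peaks.

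**Figure D4:**
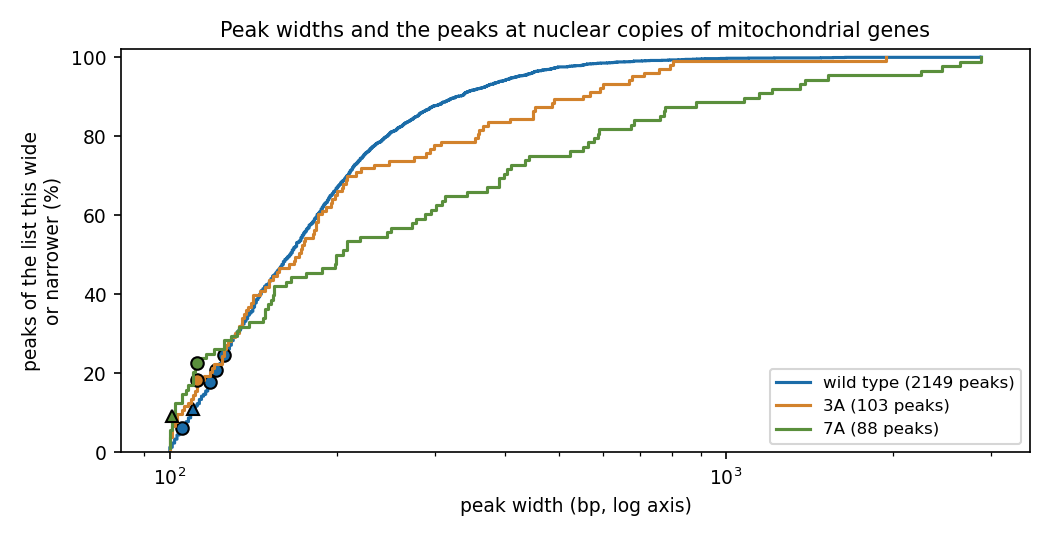
Share of peaks of each list that are as wide as a given width or narrower (lines, width in bp on a log axis), with the peaks in members as circles and those between MTND2P28 and MTCO1P12 as triangles. All marked peaks lie between 101 and 125 bp, at the narrow end of their lists.

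All 6 peaks in members, and the pair beside MTND2P28, were on the plus strand, where 50.5% of wild-type, 41.7% of 3A and 52.3% of 7A peaks were. The 6 count MTRNR2L1 once for each list, and the pair is the same place in the wild-type and 7A lists. These peaks are therefore not separate observations, and nothing is read from the shares. Since the stretches on chromosomes 1 and 17 run in mitochondrial order and that on chromosome 5 runs against it, the plus strand means the RNA of the listed gene for MTRNR2L1, MTND2P28 and MTATP6P1 and its complement for MTND5P11.

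Overlap between alleles was confined, within the 4 genes, to MTRNR2L1. Of the 4 wild-type peaks in members, 1 met a 3A peak, where 3.54% of all wild-type peaks did, and 1 met a 7A peak, where 1.40% did. The single 3A peak met a wild-type peak, as did 78.6% of the 3A list, and met a 7A peak, as did 32.0%. The single 7A peak met a wild-type peak, as did 34.1% of the 7A list, and met a 3A peak, as did 36.4%. With 1 gene behind all of these, nothing is read from the shares. When each list was restricted to fold enrichments not below its median, the wild-type peak in MTND5P11 and the 7A peak in MTRNR2L1 stayed, and no peak in a member met one of another list. The missing mutant peaks at MTND2P28, MTATP6P1 and MTND5P11 do not show that signal was absent, because a list without a peak gives no level at that place.

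Other nuclear copies held no summit. RefSeq names 486 such copies by their symbols, of 119 to 11203 bp with a median of 676 bp, and the 4 members were the ones with a wild-type summit (0.823%). Among all 58957 annotated genes, 2.74% held a wild-type summit, and among 16860 pseudogenes 0.866% did. MTRNR2L1 alone held a 3A summit (0.206% of the copies, 0.141% of all genes) and a 7A summit (0.206%, 0.115% of all genes). RNR2 has 13 copies in the MTRNR2L series, on 12 chromosomes, and the other 12 had no peak in any list. The counts were 1 of 41 copies of ND2, 1 of 45 of ND5 and 1 of 31 of ATP6. No summit lay in the copies of COX1 (58), COX3 (47), CYTB (45), ND4 (40), ND1 (36), ND6 (36), COX2 (34), ND4L (31), ND3 (25) or ATP8 (4). Within 20 kb of any copy there were 3 more wild-type peaks, on the minus strand at B3GALNT2, LOC442028 and TMEM185B, 5347 to 15745 bp away. The mitochondrial chromosome itself, where RefSeq lists 37 genes, had 0 peaks in all 3 lists. Whether the authors kept that chromosome through alignment and peak calling was not determined here, so this gives no level of signal there. Whether reads of mitochondrial RNA were placed at the nuclear copies was not tested.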

How the data were processed

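Per the submitters' processing notes, cutadapt, BWA and MACS2 were used with the build hg38. Versions, settings, the control for peak calling, the handling of reads that match several places and the pooling of replicates are not stated in the labels. The authors deposited 1 list of peaks in narrowPeak layout per allele with doxycycline. The deposited values used for a peak are its fold enrichment, a ratio in column 7, and its −log10 q in column 9. The deposited score repeats −log10 q and was not used. These authors' values only rank and describe peaks within a list.

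Starts were turned to 1-based positions. Genes came from a RefSeq table of GRCh38.p14. It had 59792 rows, of which 798 were left out because they continue a chromosome's name on scaffolds with coordinates of their own or have no placement; 58957 nuclear genes stayed. The wider set of copies was taken by symbol, as MTRNR2L with a number or as MT, a mitochondrial gene and P with a number. A mitochondrial position by offset is the gene start in mitochondrial DNA plus or minus the distance on the chromosome. Overlap needed 1 bp. No test was made, since each allele has 1 list and the genes were chosen by their peaks. The members and lists were chosen with earlier results of these data known. Genes named beside them were those next in −log10 q by a fixed rule. Summit assignment and overlap were tested on simulated data. Python 3.11.15, pandas 2.3.3 and NumPy 2.4.6 were used.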

Additional observations from a re-analysis of the deposited data

How the results depend on the processing

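Of 81 alternative values of counts, 70 were within 1.5 times the reported count. The other 11 came from 2 settings. Restricting each list to fold enrichments not below its median left 1 wild-type peak in members (MTND5P11), 0 in 3A and 1 in 7A, hence 1 and 0 member genes for wild type and 3A and 0 peaks met in each of the 6 directions between lists. A summit within 100 bp of the span, chosen after seeing the data, gave 2 7A peaks, through the one beside MTND2P28. Counts did not move with a −log10 q of at least 5 or 10, with the midpoint or any base of the peak in the span, with overlap of at least 50%, or with strand. Of 36 alternative ranks, 19 left the 95% interval of the reported share. That interval treats the peaks of a list as separate draws and measures no spread between replicates. For example, 42.9% of 161 wild-type pseudogene peaks were narrower than that in MTRNR2L1, against 16.6% of the list. The ranks among pseudogene peaks of the mutant lists all left the interval too. They rest on 4 peaks in 3A and 3 in 7A, the MTRNR2L1 peak among them, so those shares could take few values. No paired analysis was possible because the lists hold no separate replicate values, and for that reason replicates were not left out in turn.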
